A study of Mus musculus with 14 samples.

Results

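The labelled share of a gene is the number of its conversion counts divided by its total counts in the same library, and it was compared here between Mettl3-KO and WT cells at the start of a chase, 0 h and 1 h after S4U was withdrawn. Genes were kept if they had at least 50 total counts in each of 6 libraries, which left 9341 of the 36335 named entries. The libraries were WT at 0 h (1), WT at 1 h (1), Mettl3-KO at 0 h (2) and Mettl3-KO at 1 h (2), 6 of the 14 samples of the series. The other WT 1 h library had 49154 counts, too few for the comparison, and was left out.

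All samples were mouse E14 embryonic stem cells, an established line, kept for 2 weeks in FBS and LIF medium with 200 nM INK128. INK128 inhibits the mTOR kinase and puts such cells into a paused state. Both genotypes were given 100 µM S4U, a thiolated uridine, for 12 h with fresh medium every 3 h. They were then chased without it for 0, 1, 3 or 8 h. Iodoacetamide at 10 mM then marked the incorporated S4U so that it is read as C, and sequencing libraries of 3′ ends started from 100 ng of RNA each. WT and Mettl3-KO cells were therefore given the same inhibitor, dose of label and medium and differed in genotype. Whether the lines took up S4U equally was not tested. The sources used here do not say how the knockout was made or whether it is 1 clone. The labels number the replicates without tying them to separate cultures. The spread that the p-values rest on may therefore be technical.

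Mettl3 is the catalytic subunit of the complex that writes m6A, a methyl mark on adenosine in mRNA that reader proteins couple to decay. In a pulse and chase, the share of an RNA that carries label at the end of the pulse rises with how fast old molecules are replaced by new ones. Its fall during the chase follows the decay of the labelled molecules and their dilution by new ones. A share has the gene's total RNA in its denominator, so it is not a level of expression.

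Mettl3 itself had 42.4 CPM (total counts scaled to library size) in the WT 0 h library and 74.8 CPM in the WT 1 h library, against 1.41, 1.66, 2.39 and 1.70 CPM in the Mettl3-KO libraries. It did not reach 50 counts in every library and has no test here. Of 10 embryonic stem cell markers, 9 reached 50 counts in all 6 libraries, and the markers' summed level was 5392 to 7030 CPM in WT and 5325 to 6597 CPM in Mettl3-KO. Summed endoderm markers (5 of 20 at 50 counts or more throughout) were at 1473 to 2020 CPM in WT and 619.5 to 721.5 CPM in Mettl3-KO. Summed neural markers (3 of 12) were at 86.2 to 90.7 CPM in WT and 510.9 to 738.6 CPM in Mettl3-KO. These 3 did not move together. Mean CPM in WT and Mettl3-KO was 16.3 and 444 for Stmn2 and 13.6 and 102.1 for Tubb3, but 42.5 and 6.36 for Sox1. Afp, a marker of visceral endoderm, and Neurog2, a neuronal transcription factor, were at 0 in all 6 libraries. The Y-linked genes Uty, Eif2s3y, Kdm5d and Ddx3y summed to 1.62 and 4.67 CPM in WT and to between 273 and 319 CPM in Mettl3-KO, so the lines differ in more than Mettl3. Genotype and line cannot be told apart in any comparison that follows, and the part of the marker levels in them was not tested. Library totals ran from 6959170 counts (WT 1 h, the shallowest) to 21497335.

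Conversion counts made up less of all counts in Mettl3-KO at both times. At 0 h, 39.44% of all counts in the WT library were conversion counts (95% Wilson interval 39.42% to 39.47%, counting error only). The Mettl3-KO libraries at 0 h were at 26.1% and 26.6%, a mean of 26.3% ± 0.34 (SD, n = 2). At 1 h the WT library had fallen to 30.82% (95% Wilson interval 30.78% to 30.85%), while the Mettl3-KO libraries were at 25.2% and 26.7%, a mean of 25.95% ± 1.08 (SD, n = 2). The genotypes did not overlap at either time, and the gap was narrower at 1 h. Mettl3-KO stood at 0.668 of the WT share at 0 h and at 0.842 at 1 h, or -0.42 on the log2 scale over both times. An exact two-sided permutation test of genotype within chase time gave p = 0.111, the smallest that its 9 assignments allow, so this design cannot reach 0.05. Including the shallow WT 1 h library, which had a share of 8.43%, turned the difference to 0.05 on the log2 scale (exact permutation p = 1).

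**Figure D1:**
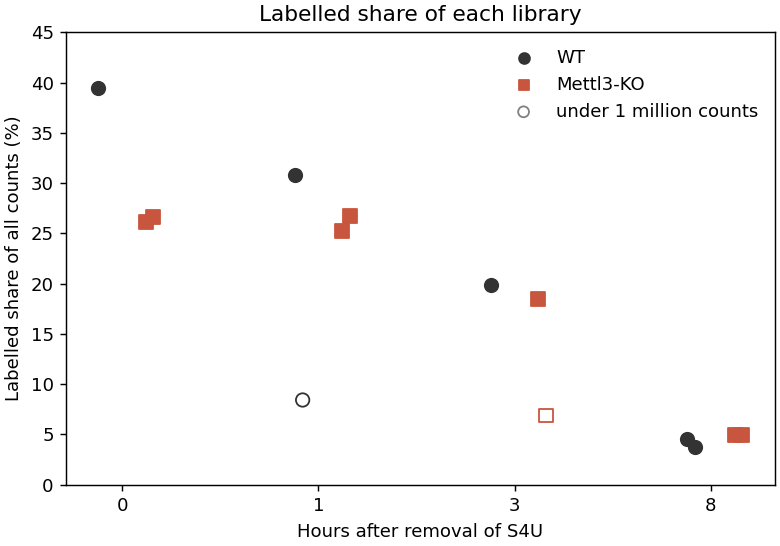
Labelled share of all counts (y axis, percent) in each library by hours after removal of S4U (x axis, categories), WT as circles and Mettl3-KO as squares, 1 point per library, hollow for the 2 shallow libraries. The Mettl3-KO points at 0 h and 1 h lie between 25.2% and 26.7%, below the filled WT points at 39.4% and 30.8%, and the genotypes are close at 3 h (19.9% and 18.5%).

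The drop was spread over nearly the whole set of genes at 0 h and was uneven at 1 h. The median gene had a labelled share of 45.7% in WT at 0 h and of 30.3% and 31.1% in Mettl3-KO, and at 1 h of 34.7% in WT and of 29.4% and 31.1% in Mettl3-KO. At 0 h both Mettl3-KO libraries were below WT for 8880 genes (95.1%), at 1 h for 5850 (62.6%), and at both times for 5650 (60.5%). For 1772 genes (19%) both Mettl3-KO libraries were below WT at 0 h and above it at 1 h. Only 51 genes (0.546%) were above WT at both times.

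The median log2 difference, Mettl3-KO minus WT, was -0.57 at 0 h, with 90% of genes between -1.05 and -0.19. At 1 h it was -0.22, with 90% of genes between -0.90 and 0.74. The Mettl3-KO replicates differed from each other by a median absolute log2 of 0.18 at each time. Between 0 h and 1 h the median gene fell by 0.36 on the log2 scale in WT and by 0.02 in Mettl3-KO. The WT 1 h library also stood apart in its pattern across the 9341 genes: the Pearson r of its log2 shares with the other 5 libraries was 0.554 to 0.609, and those 5 had 0.733 to 0.777 among themselves. These correlations are across genes of libraries that differ in depth, and genes are not independent replicates.

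**Figure D2:**
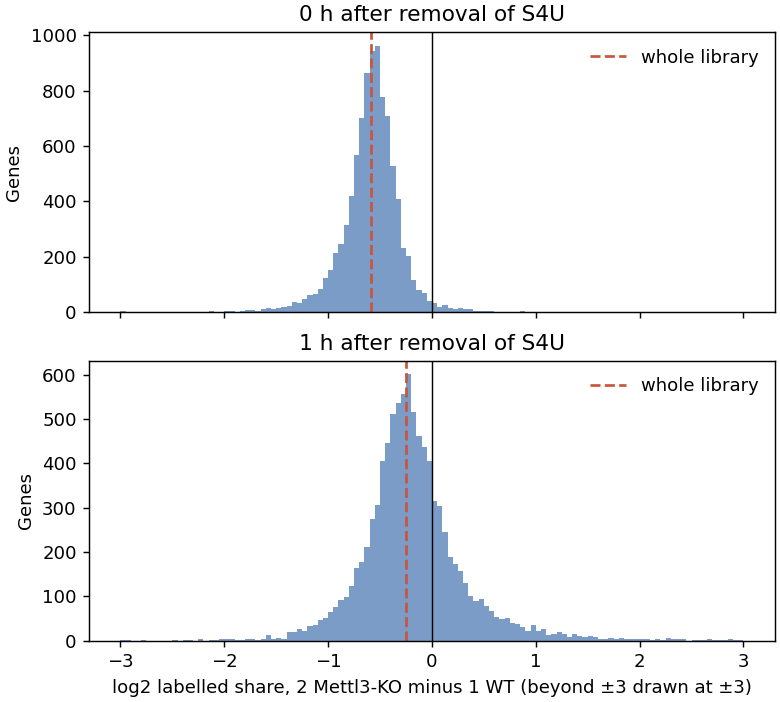
Number of genes (y axis) by log2 difference in labelled share, mean of 2 Mettl3-KO libraries minus 1 WT library (x axis), at 0 h above and 1 h below, for 9341 genes. The solid line marks no difference and the dashed line the difference of the whole libraries (-0.58 and -0.25); the 1 h values are wider and reach further above 0.

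With chase time as a covariate, edgeR's quasi-likelihood test on conversion counts, with the gene's own total as offset, called 3238 genes lower (34.7%) and 11 higher (0.118%) in Mettl3-KO at an adjusted p under 0.05. The median log2 difference was -0.40, with the middle 50% of genes between -0.54 and -0.27. Calls followed depth: 8.9% of genes in the lowest quartile of total counts were called lower, then 21.4%, 40.6% and 67.8%, while the 4 quartile medians of the log2 difference were between -0.405 and -0.394. A gene that was not called is therefore not shown to have kept its share. The 0 h libraries alone gave 5253 lower calls and the 1 h libraries alone 804. Limma on log2 shares called 1 gene in each direction, with 3908 genes at an unadjusted p under 0.05 against 4560 with edgeR.

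Of the 6 genes with the most counts, all were called lower in the share, whether that share was low or high. The mitochondrial 16S ribosomal RNA mt-Rnr2 had a share of 7.27% and 5.99% in WT at 0 h and 1 h and of 4.64%, 4.96%, 5.07% and 4.53% in Mettl3-KO (log2 -0.46, edgeR adjusted p = 0.00225). Actb, cytoplasmic actin, had 34.8% and 27.8% in WT and 19.8%, 23.1%, 20.5% and 19.9% in Mettl3-KO (log2 -0.58, edgeR adjusted p = 0.000391). Rps20, a ribosomal protein of the small subunit, had 19.4% and 15.2% in WT and 12.5%, 12.1%, 11.4% and 11.9% in Mettl3-KO (log2 -0.52, edgeR adjusted p = 0.00117). In these 3 genes, as in Rplp1 and Rpl32 of the large ribosomal subunit, no Mettl3-KO library reached its time-matched WT library. The sixth, the mitochondrial 12S ribosomal RNA mt-Rnr1, had 5.50% and 3.65% in WT and 3.53%, 3.85%, 3.67% and 3.60% in Mettl3-KO, so that the genotypes overlapped at 1 h (log2 -0.30, edgeR adjusted p = 0.0428). Relative to the library-wide drop, Rplp1 alone of the 6 passed the test.

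The size of the drop at 0 h also went with the level of the gene's labelled share. Genes in the lowest quartile of mean share over the 6 libraries (up to 27.6%) had a median log2 difference of -0.68 at 0 h, followed by -0.61, -0.55 and -0.49 in the higher quartiles. At 1 h the same quartiles had -0.26, -0.23, -0.22 and -0.21. The quartiles were formed from the same 6 libraries, so this is a description of how the difference is spread.

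Gene groups differed greatly in their shares, and at 0 h their medians were lower in Mettl3-KO. The lists were the m6A machinery, mRNAs described as m6A-methylated, naive and primed pluripotency genes, growth, stress, metabolic and RNA-processing lists, and markers of other cell types. In WT at 0 h the list medians ran from 19.5% for RNAs of the mitochondrial genome (8 tested) and 25.4% for cytosolic ribosomal proteins (74) to 56.1% for mitosis genes (32). The same lists had medians of 10.9%, 16.4% and 39.5% in Mettl3-KO at 0 h. Every list with at least 10 genes tested had a lower median in Mettl3-KO than in WT at 0 h. At 1 h the medians of these lists were closer, but all except that of the MYC family were still lower in Mettl3-KO. Mitosis genes had 38.9% in Mettl3-KO and 46.6% in WT, and nuclear-encoded oxidative phosphorylation genes 23.8% and 31.5%. The gap was smallest for mRNAs described as m6A-methylated, 34.4% in Mettl3-KO and 34.6% in WT. For the MYC family the median was above WT (33.9% and 33.2%).

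**Figure D3:**
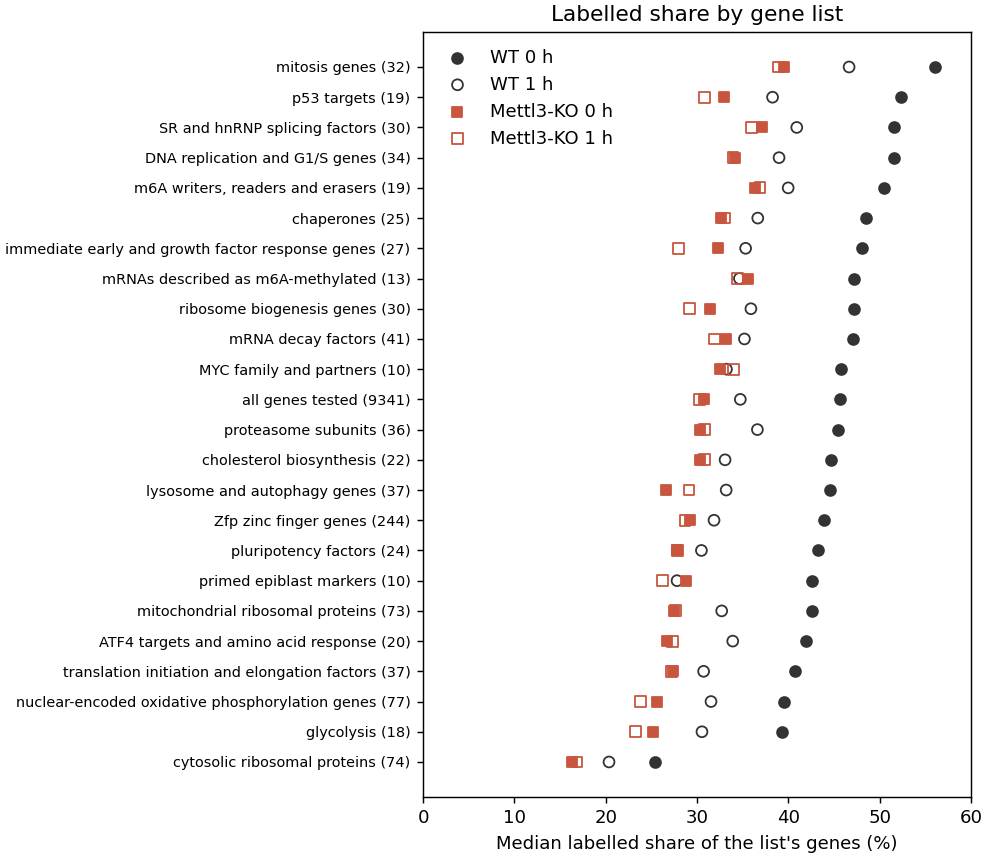
Median labelled share (x axis, percent) of the genes in each list (y axis, number of genes tested in brackets; lists of 10 or more), for WT as circles and the mean of 2 Mettl3-KO libraries as squares, filled at 0 h and hollow at 1 h. Filled squares lie left of filled circles in every list, and the squares of the 2 times lie closer together than the circles.

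In the list of nuclear-encoded oxidative phosphorylation genes, which build the respiratory chain and ATP synthase, 59 of 77 were called lower and 0 higher, with a median of -0.48. Cytosolic ribosomal proteins had 49 of 74 lower (median -0.43), proteasome subunits 25 of 36 (-0.43), chaperones 18 of 25 (-0.36) and translation factors 26 of 37 (-0.38), again with none higher. At the other end, Zfp zinc finger genes had 49 of 244 lower (median -0.37) and MYC family genes 2 of 10 (-0.26). All genes tested had 34.7% lower with a median of -0.40, and these counts vary with depth as above.

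Among 24 pluripotency factors, 11 were called lower (45.8%, against 34.7% of all genes) and 1, Klf4, higher (0.118% of all genes). Their median log2 difference was -0.33, a smaller drop than the -0.40 of all genes, and counts of calls vary with depth as above. Sox2, a core transcription factor of these cells, had a share of 40.7% and 25.3% in WT and of 27.6%, 24.98%, 23.4% and 27.7% in Mettl3-KO, below WT at 0 h and on both sides of it at 1 h (log2 -0.32, edgeR adjusted p = 0.052). Nanog, another, had 39.2% and 24.7% in WT and 27.8%, 26.8%, 24.3% and 27.7% in Mettl3-KO (log2 -0.24, edgeR adjusted p = 0.141). Pou5f1, which encodes Oct4, had 37.0% and 26.6% in WT and 26.1%, 20.3%, 18.8% and 21.9% in Mettl3-KO (log2 -0.54, edgeR adjusted p = 0.0335). Mycn, a MYC family transcription factor, had 55.7% and 34.6% in WT and 37.7%, 39.5%, 35.2% and 39.1% in Mettl3-KO (log2 -0.25, edgeR adjusted p = 0.129). For Mycn the Mettl3-KO values at 1 h were above the WT value, as was the case for 20.7% of all genes.

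To see which genes departed from the library-wide drop, each share was divided by the labelled share of its library. On this relative scale edgeR called 41 genes (0.439%), 22 higher (0.236%) and 19 lower (0.203%) in Mettl3-KO, with a median of 0.03 over all genes and 903 genes at an unadjusted p under 0.05. The relative shares of the genotypes did not overlap at either time in any of the 41, which held for 17.4% of all genes on the higher side and 11.4% on the lower side. The 41 were called from these same relative shares, so this describes them and is no separate evidence for the calls. DESeq2 called 33 and 25, and limma on log2 relative shares called 1 and 0. Without the WT 1 h library 15 genes were called, 12 of them among the 41; without the WT 0 h library 209 were called, 27 of them among the 41. A test of whether the relative difference changed between 0 h and 1 h called 5 genes (0.0535%).

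Within the lists, few genes departed. The m6A writers, readers and erasers other than Mettl3 had 0 of 19 called on the relative scale (edgeR; median 0.03), and Ythdf2, a reader linked to mRNA decay, had 49.6% and 41.8% in WT and 38.9%, 40.3%, 34.3% and 39.8% in Mettl3-KO. Of 13 mRNAs described as m6A-methylated, Klf4 was the only call, with a median of 0.13 and 10 of 13 above 0, where 56.4% of all genes were above 0. The MYC family had 10 of 10 above 0 with a median of 0.17, 9 of 10 when libraries were centred on their median gene, and 0 called. Oxidative phosphorylation genes had 30 of 77 above 0 and a median of -0.04, with Sdha called higher and Cox5b and Cox6a1 called lower. Cytosolic ribosomal proteins had 36 of 74 above 0 and a median near 0, with Rplp1 and Rps4l called lower. Rps4l is annotated as a transcribed pseudogene, so reads could be split with near-identical copies.

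Klf4, a Krüppel-like transcription factor of the naive state (chromosome 4, 55527137 to 55532475, RefSeq on GRCm38.p6), was among the deepest of the higher genes, with 6650 to 29252 counts per library. Its labelled share was 32.1% and 24.6% in WT at 0 h and 1 h, and in Mettl3-KO 35.4% and 35.8% at 0 h and 36.6% and 32.3% at 1 h. All 4 Mettl3-KO libraries thus lay above WT at the matching time, where nearly all genes lay below at 0 h. The difference was 0.31 on the log2 scale for the share (edgeR adjusted p = 0.036) and 0.74 relative to the library (SE 0.07, edgeR adjusted p = 9.65e-07). With the shallow WT 1 h library included the relative difference was 0.71 and the call was lost (edgeR adjusted p = 0.193), as it was in the 1 h libraries alone (0.74, edgeR adjusted p = 0.0567) and with limma (0.73, adjusted p = 0.429). Total Klf4 was at 743.6 and 942 CPM in WT and 1085 to 1459 CPM in Mettl3-KO.

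The gene encoding Hspb8, a small heat shock protein, had 42.2% and 35.4% in WT and 54.4%, 55.8%, 52.98% and 58.3% in Mettl3-KO, a relative difference of 0.94 (SE 0.12, edgeR adjusted p = 8.35e-05). Fuca1, a lysosomal fucosidase, had 34.0% and 25.3% in WT and 46.8%, 63.2%, 48.3% and 54.1% in Mettl3-KO (relative 1.28, SE 0.18, edgeR adjusted p = 0.000226). In both genes every Mettl3-KO library was above both WT libraries in the share itself. Their totals were 198 to 2386 counts per library.

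Serpine2, a secreted protease inhibitor, had 28.5% and 11.8% in WT and 44.7%, 39.7%, 38.2% and 43.7% in Mettl3-KO (relative 1.40, SE 0.21). Nme6, of the nucleoside diphosphate kinase family, had 46.7% and 34.2% in WT and 54.4%, 52.6%, 53.3% and 58.3% in Mettl3-KO (relative 0.86, SE 0.15). Tstd2 had 48.1% and 44.4% in WT and 57.9%, 54.1%, 52.6% and 63.4% in Mettl3-KO (relative 0.73, SE 0.13). For all 3 the Mettl3-KO values exceeded WT at both times, and in Serpine2 the WT values were far apart, with 110 counts behind the WT 1 h value.

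Hmgn3, a nucleosome-binding protein, had 13.3% and 14.8% in WT and 46.0%, 42.7%, 35.0% and 45.4% in Mettl3-KO (relative 2.18, SE 0.27), with 54 counts in the WT 1 h library. Its WT share was higher later in the chase, 28.4% at 3 h and 50.4% and 28.4% at 8 h, where Mettl3-KO had 27.9%, 14.3% and 22.9% (late relative difference -0.86, edgeR adjusted p = 0.731). Snord3a, the U3 small nucleolar RNA of ribosomal RNA processing, had 2.21% and 3.71% in WT and 58.0%, 56.9%, 53.1% and 57.2% in Mettl3-KO (relative 4.98, SE 0.19). It is a gene of repeated copies with no position here, and its share at 8 h in the WT replicates was 53.5% and 3.324%, so its value varied within WT as much as between genotypes. Ociad1 had 43.1% and 27.7% in WT and 37.9%, 38.5%, 40.9% and 45.1% in Mettl3-KO (relative 0.63, SE 0.11), lower than WT in the share at 0 h and higher at 1 h.

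A further 12 higher genes, named after their values were seen, were Cr1l, Lmna, Ostc, Pramel12, Sdha, Nnt, Comtd1, Septin3, Riok2, Elob, Decr2 and Got1. Of these 12, only Cr1l passed the test in the share itself (edgeR adjusted p = 0.0427). Got1, cytosolic aspartate aminotransferase, had 78.9% and 75.5% in WT and 78.3%, 73.2%, 71.7% and 76.3% in Mettl3-KO (relative 0.38, SE 0.07). Sdha, the flavoprotein subunit of succinate dehydrogenase, had 40.2% and 31.5% in WT and 35.9%, 39.8%, 33.1% and 33.2% in Mettl3-KO (relative 0.42, SE 0.09). Neither passed the test in the share (edgeR adjusted p = 0.756 for Got1 and 0.945 for Sdha). Both Mettl3-KO values of Sdha were below WT at 0 h and above it at 1 h. Those of Got1 were below WT at 0 h and on both sides of it at 1 h. In all, 8 of the 22 were also called higher in the share itself, against 0.118% of all genes. For 13 of the 22 both Mettl3-KO libraries were above WT at both times in the share, against 0.546% of all genes. Both scales use the same counts, so these numbers are no separate evidence.

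**Figure D4:**
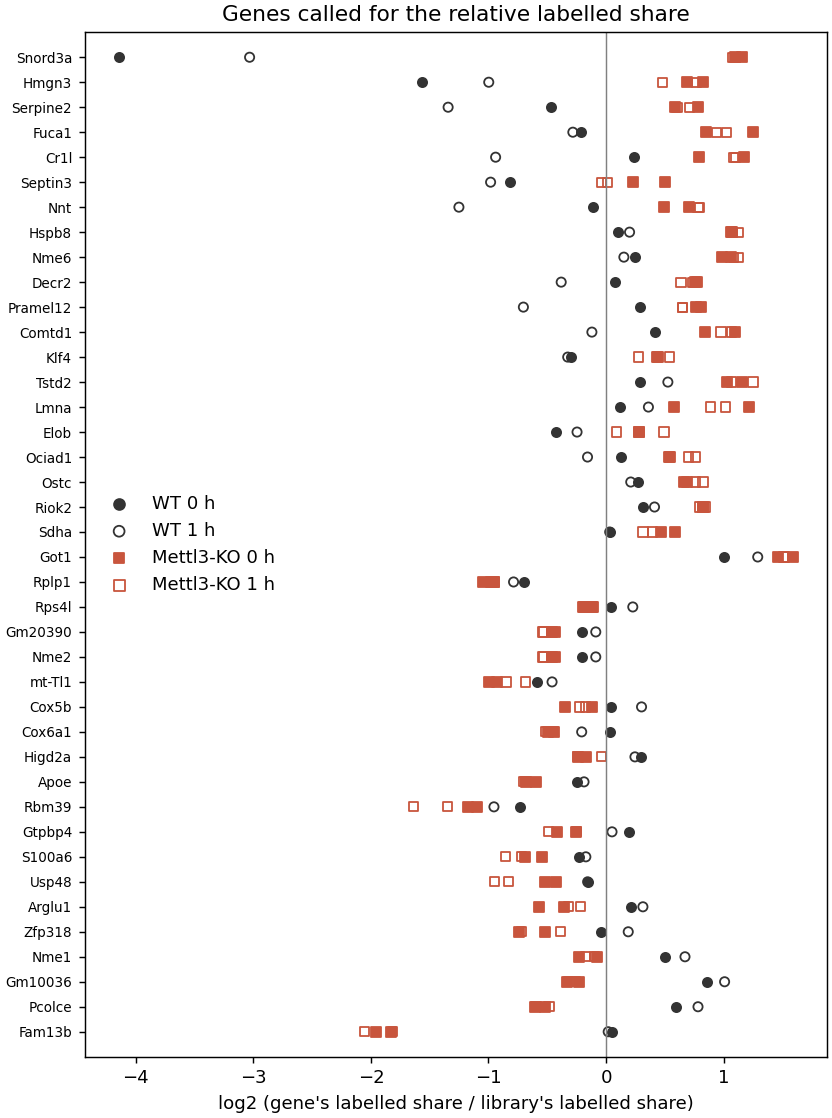
Log2 of each gene's labelled share over the share of its library (x axis) for 40 of the 41 genes called on the relative scale (y axis, ordered by difference), WT as circles and Mettl3-KO as squares, filled at 0 h and hollow at 1 h, 1 point per library. Squares lie right of circles in the upper 21 genes and left of them in the lower 19; Snord3a has the widest gap (4.98).

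The 19 lower genes fell further than their library, and all 19 were also called lower in the share itself, as were 34.7% of all genes. Both scales use the same counts and the share also holds the library-wide drop, so this is no separate evidence. Arglu1, an arginine- and glutamate-rich protein linked to splicing (chromosome 8, 8666297 to 8690550), had a share of 45.6% and 38.3% in WT and of 17.5%, 20.7%, 21.7% and 21.4% in Mettl3-KO. Every Mettl3-KO value was thus well below both WT values, with 1690 to 9301 counts behind each. The relative difference was -0.63 (SE 0.08, edgeR adjusted p = 8.35e-05). Rbm39, an RNA-binding splicing factor named after its values were seen, had 23.8% and 15.9% in WT and 11.5%, 12.4%, 9.86% and 8.58% in Mettl3-KO (relative -0.47, SE 0.09, edgeR adjusted p = 0.0106).

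A pair of neighbouring nucleoside diphosphate kinase genes on chromosome 11 was lower. Nme1 had 55.7% and 49.2% in WT and 22.2%, 25.1%, 22.3% and 24.9% in Mettl3-KO (relative -0.73, SE 0.07, edgeR adjusted p = 1.43e-06). Nme2, named after its values were seen, had 34.1% and 29.0% in WT and 18.9%, 19.7%, 17.3% and 18.5% in Mettl3-KO (relative -0.33, SE 0.07, edgeR adjusted p = 0.0269). The entry Gm20390, also named afterwards, has nearly the same counts as Nme2 in every library and is not a separate observation.

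Pcolce, an enhancer of procollagen processing, had 59.7% and 53.1% in WT and 17.0%, 18.5%, 16.6% and 19.0% in Mettl3-KO (relative -1.25, SE 0.10, edgeR adjusted p = 3.83e-08). Apoe, the lipid carrier apolipoprotein E, had 33.2% and 27.1% in WT and 16.2%, 17.6%, 15.6% and 16.4% in Mettl3-KO (relative -0.45, SE 0.06). S100a6, a calcium-binding protein, had 33.6% and 27.4% in WT and 16.0%, 18.2%, 13.9% and 16.1% in Mettl3-KO (relative -0.51, SE 0.09). These 3 genes also had smaller totals than WT. Mean CPM in WT and Mettl3-KO was 230.7 and 53.6 for Pcolce, 1491 and 771.8 for Apoe, and 801.3 and 34.8 for S100a6. Most other lower genes did not share this. Of the 19 lower genes, 6 had totals more than 1 log2 unit above WT and 3 more than 1 log2 unit below it. Among the 6, which count Nme2 and Gm20390 separately, Gm10036 had a mean of 114.6 CPM in WT and 1553 CPM in Mettl3-KO.

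Cox6a1, a subunit of cytochrome c oxidase, had 40.3% and 26.7% in WT and 18.5%, 19.5%, 17.6% and 19.6% in Mettl3-KO (relative -0.39, SE 0.07). Cox5b, another subunit, had 40.5% and 38.0% in WT and 20.4%, 24.4%, 22.3% and 22.8% in Mettl3-KO (relative -0.38, SE 0.08). Rplp1, an acidic ribosomal protein with 20153 or more counts in each library, had 24.3% and 17.9% in WT and 12.6%, 13.7%, 12.8% and 13.8% in Mettl3-KO (relative -0.24, SE 0.05). These genes show how small a departure passed the test at high counts.

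Usp48, a deubiquitinase, had 35.4% and 27.7% in WT and 19.4%, 18.5%, 14.1% and 13.8% in Mettl3-KO (relative -0.51, SE 0.10). Gtpbp4, a GTPase of large ribosomal subunit assembly, had 45.03% and 32.0% in WT and 19.5%, 22.2%, 21.2% and 19.0% in Mettl3-KO (relative -0.47, SE 0.09). Fam13b had 40.7% and 31.1% in WT and 6.62%, 7.32%, 7.04% and 6.32% in Mettl3-KO, the lowest Mettl3-KO shares among the 19 (relative -1.96, SE 0.35). Gm10036, annotated as a pseudogene whose reads could be split with near-identical copies, had 71.6% and 62.1% in WT and 22.2%, 21.0%, 21.0% and 21.4% in Mettl3-KO (relative -1.22, SE 0.06). The remaining lower genes, named after their values were seen, were Higd2a, Zfp318, Rps4l and the mitochondrial leucine tRNA mt-Tl1.

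The 3 h and 8 h libraries, which were not used to call these genes, show what became of their shares. All 41 could be tested there, among 8605 genes with enough counts, of which 105 were called (1.22%), 64 higher (0.744%) and 41 lower (0.476%). Of the 22 higher genes, 17 had the same sign, where 48.6% of all genes were above 0, and 12 were called again, which is 54.5% of the early calls and 18.8% of the late ones. Of the 19 lower genes, 12 had the same sign, where 51.4% of all genes were below 0, and 3, Gm10036, Pcolce and Nme1, were called again, which is 15.8% of the early calls and 7.32% of the late ones.

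Klf4 fell to 8.96% in WT at 3 h and to 1.77% and 1.48% at 8 h, while Mettl3-KO had 21.3% at 3 h and 13.7% and 10.99% at 8 h (late relative difference 2.22, edgeR adjusted p = 3.31e-09). Arglu1 at 3 h was at 21.8% in WT against 16.4% in Mettl3-KO, and it was at 1.68% and 2.14% against 3.22% and 4.53% at 8 h (late relative difference 0.38, edgeR adjusted p = 0.764). The shares of these genes thus fell in both genotypes during the chase, and for both genes the WT values at 8 h were below both Mettl3-KO values. For Arglu1 this is the opposite side from 0 h, 1 h and 3 h.

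Some other called genes kept a high share in 1 genotype throughout the chase. Fuca1 at 8 h was at 0.546% and 0.612% in WT and at 47.7% and 50.5% in Mettl3-KO, near its Mettl3-KO level at 0 h. Hspb8 was at 2.36% and 5.41% in WT and 36.4% and 41.4% in Mettl3-KO. Pcolce was at 42.1% and 40.3% in WT and 2.79% and 3.31% in Mettl3-KO, and Gm10036 at 72.6% and 73.6% in WT and 10.3% and 10.2% in Mettl3-KO.

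A mean share over 20% at 8 h in Mettl3-KO was found for 14 of the 22 higher genes, against 83 of all 9341 (0.889%), and in WT for 3 of the 19 lower genes, against 58 (0.621%). In either genotype it held for 17 of the 41 called genes and for 111 of all genes (1.19%). No library without S4U was used here, so conversion counts that do not come from S4U cannot be told apart from label that persists. With those 111 genes left out, 5 genes were called higher and 13 lower on the relative scale.

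**Figure D5:**
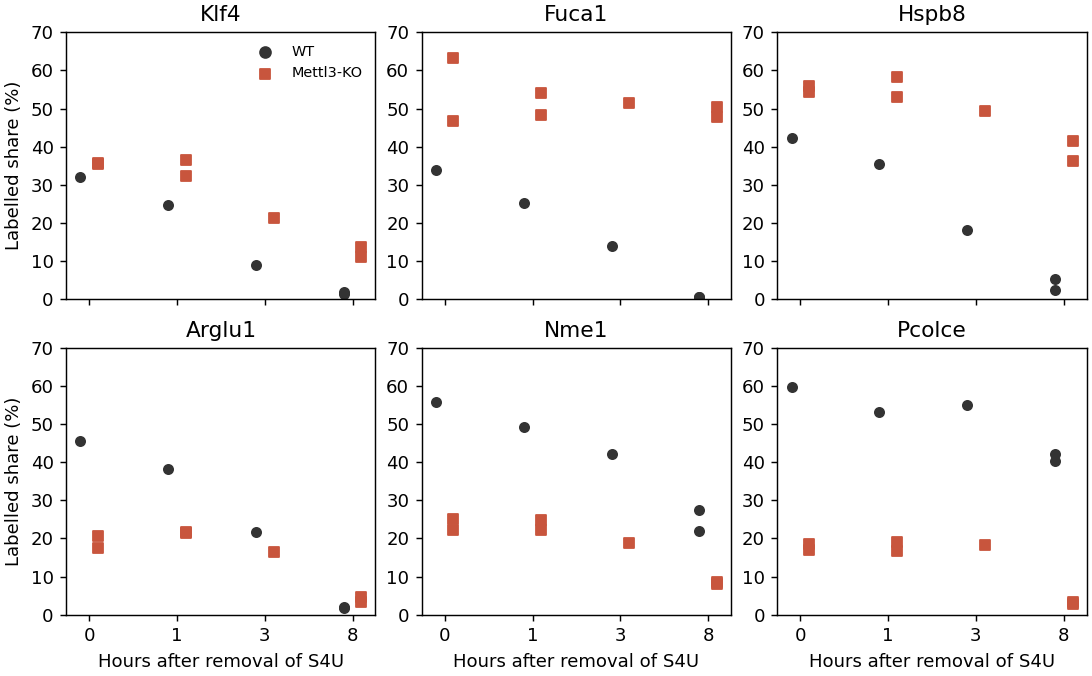
Labelled share (y axis, percent) by hours after removal of S4U (x axis, categories) for 3 genes higher and 3 lower on the relative scale, 1 point per library for the 12 deeper libraries, WT as circles and Mettl3-KO as squares. Klf4 and Arglu1 fall in both genotypes, while Fuca1 and Hspb8 stay at 36.4% or more in Mettl3-KO and Pcolce at 40.3% or more in WT.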

How the data were processed

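Total counts and T>C conversion counts per gene are whole numbers in 2 tables that the authors deposited. Tools in the submitters' processing notes are edgeR 3.32.1, Subread 1.5.0 with featureCounts, and Trim Galore 0.4.0, with build mm10. They do not state the aligner, how conversions were called, or whether conversion counts are reads or bases. Rows were matched by symbol, since 240 entries stand in another order in the 2 tables. The 1 unnamed entry (0.00736% to 0.0117% of counts in the 6 libraries) was left out. For 2 tested genes a library held more conversion than total counts.

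Conversion counts were tested with edgeR 4.0.16 in R 4.3.3 (robust quasi-likelihood, chase time as factor). The offset was the log of the gene's total count, or of that total times the library's summed share for the relative share. Standard errors are the log2 difference over the square root of F, and Benjamini-Hochberg adjusted p under 0.05 over all genes tested was the threshold. Log2 shares used 0.5 added to conversions and 1 to totals. The test was tried on simulated counts. Alternatives were DESeq2 1.42.0, limma 3.58.1, other count minimums and centrings, single times, a replicate block, and leaving out libraries.

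The text draws on Mettl3, in each direction the 10 lowest p-values of the relative share (called, with that sign at both times), up to 4 members per list, the 6 genes with the most counts, and 6 regulators (Klf4, Myc, Mycn, Nanog, Pou5f1, Sox2). Others are named as chosen later. The result of 1 gene among these is not reported here. The members and lists were chosen with earlier results of these data known. RefSeq positions (GRCm38.p6, which mm10 is made from) were matched by symbol for 9098 genes. Of the tested entries, 53 have counts identical to another entry. Without strand information, overlapping and antisense genes cannot be told apart.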

Additional observations from a re-analysis of the deposited data

Results flagged for a closer look

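For 5 genes the relative difference between Mettl3-KO and WT at 1 h differed from that at 0 h by edgeR's interaction test (0.0535% of 9341, with 830 at an unadjusted p under 0.05, and 0 called by DESeq2, with 329 at an unadjusted p under 0.05). The change in log2 difference was 2.89 for Frmd4a, 5.72 for St7l, 5.98 for Ascc3, 1.15 for Ppp1r12a and -1.52 for Gm6542. In each of the 5 the WT share moved far between 0 h and 1 h: from 47.2% to 6.20% in Frmd4a, 36.2% to 0.735% in St7l, 58.7% to 0.893% in Ascc3, 27.9% to 12.1% in Ppp1r12a and 25.2% to 58.5% in Gm6542. The Mettl3-KO shares of Gm6542, for comparison, were 18.7%, 18.1%, 18.5% and 18.9%. WT has 1 library at each time, so these calls rest on single WT values, and WT 1 h is the shallowest of the 6 libraries.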

How the results depend on the processing

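The median share difference, -0.40, was -0.56 in the 0 h libraries alone and -0.22 in the 1 h libraries alone, and between these values when a library was left out (-0.56 to -0.22). Calls of the share (11 higher, 3238 lower) became 1 and 1 with limma, 6 and 5253 at 0 h alone and 163 and 804 at 1 h alone. There were 23 higher with no count minimum, 5 higher without the genes over 20% at 8 h, and 1733 lower with the shallow WT 1 h library. Leaving out a library gave 7 to 123 higher and 642 to 5357 lower, the last without WT 1 h and the fewest without WT 0 h. Calls of the relative share (22 higher, 19 lower) became 1 and 0 with limma, 39 and 31 with the shallow WT 1 h library, and 11 and 12 at 0 h alone. There were 42 higher at 1 h alone and 5 higher without the genes over 20% at 8 h. Leaving out a library gave 9 to 162 higher and 6 to 47 lower. No gene named for a call on the relative scale changed sign under any alternative run. The calls at 1 h against 0 h (5) were 0 with DESeq2, 1 with median centring and 0 to 12 without a Mettl3-KO library. At 3 h and 8 h (64 higher, 41 lower) a minimum of 200 counts gave 33 and 19, and leaving out a library 27 to 294 higher and 10 to 185 lower, the most without WT 3 h. The library-wide difference (-0.42) was 0.0523, reversed, with the shallow WT 1 h library, and -0.58 to -0.25 when a library was left out. Except where depth or the number of libraries changes by construction, the cause was not tested.

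WT has replicate 1 only in these 6 libraries, so the numbers cannot show a pairing. At 8 h the replicate differences of WT and Mettl3-KO had r = 0.00435 across 8605 genes. A replicate block gave 7 higher and 1160 lower for the share, 12 and 7 for the relative share, and 76 and 38 at 3 h and 8 h.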

Other observations

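Lmna, which encodes lamins A and C, had 1540 and 2846 total counts in the WT libraries and 73 to 169 in Mettl3-KO, a mean of 186.1 CPM against 5.92 CPM. Its labelled share was 42.9% and 39.6% in WT and 38.6%, 61.8%, 50.9% and 49.3% in Mettl3-KO (relative 0.73, edgeR adjusted p = 0.0286). The share itself did not pass (edgeR adjusted p = 0.178), and its Mettl3-KO values at 0 h lay on both sides of WT. The relative call was lost with DESeq2 (adjusted p = 0.262) and with limma (adjusted p = 0.504).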
